A study of Mus musculus with 21 samples.

Results

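The genes described here are 10 T cell genes, Cd3d, Cd3e, Cd3g, Cd4, Cd8a, Cd8b1, Lck, Nkg7, Gzma and Gzmb, chosen by name as markers of T cells and matched by symbol to 10 of the 55401 mouse genes in a forebrain count table. All 10 were found in the table, and their counts were followed in each of 21 mice. All 21 mice carry a human APOE allele in place of both copies of mouse Apoe. The parental groups are E2H (APOE2), E3H (APOE3) and E4H (APOE4), with 3 mice each, killed at 9 to 10 months of age. The tau transgenic groups, PS/E2H, PS/E3H and, lastly, PS/E4H, have 4 mice each. These mice are also heterozygous for PS19, a transgene of P301S mutant human tau, and were taken once their hindlimbs were paralyzed. When PS19 mice are compared with parental mice, tau genotype, paralysis and age at death therefore cannot be told apart. The APOE mice were on C57BL6 and PS19 had been kept on a B6/C3H background, so that strain background may also differ between them. All mice were male except 1 E4H, 1 PS/E2H and 2 PS/E4H mice, and the labels do not say which. The mice were perfused, the forebrain was taken whole, and poly(A) RNA was sequenced in pairs of reads.

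T cells recognise antigen through a receptor that reaches the cell surface only together with the CD3 chains, and the coreceptors CD4 and CD8 bind major histocompatibility complex (MHC) class II and class I molecules on the cell that presents the antigen. The kinase Lck, held at the coreceptors, phosphorylates the CD3 chains and so starts the signal. Cytotoxic T cells and natural killer cells store granzymes, of which Gzma and Gzmb encode 2, in granules, and Nkg7 encodes a protein of these granules. The normal brain holds few T cells, mostly at its borders, and T cells have been described in brains with tau pathology. In bulk tissue, fewer cells of a type and less RNA per cell cannot be told apart.

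The 3 CD3 genes lie together on chromosome 9 (GRCm38). Cd3g (ENSMUSG00000002033) runs on the minus strand from 44969572 to 44980431, Cd3d (ENSMUSG00000032094) on the plus strand from 44981786 to 44987339, and Cd3e (ENSMUSG00000032093) on the minus strand from 44998740 to 45009627. The starts of Cd3g and Cd3d are 1355 bases apart and face away from each other, and their upstream sequences are shown because they lie in the 1 stretch between these starts. RefSeq (GRCm38.p6) gave a start region for 8 of the 10 genes. The 250 bases before each start are written 5′ to 3′ on the gene's own strand, with capitals at letters that match one of 4 short motifs of factors active in T cells. All 4 motifs were searched on both strands. The RUNX letters, TGTGGT, stood in 14.0% of the upstream stretches of 32851 RefSeq start regions. The ETS letters, GGAAGT, stood in 19.7% of them. The GATA letters, AGATAA, stood in 9.99% and the TCF letters, TTCAAAG, in 4.46%.
Cd3g, chr9:44980432-44980681, minus strand: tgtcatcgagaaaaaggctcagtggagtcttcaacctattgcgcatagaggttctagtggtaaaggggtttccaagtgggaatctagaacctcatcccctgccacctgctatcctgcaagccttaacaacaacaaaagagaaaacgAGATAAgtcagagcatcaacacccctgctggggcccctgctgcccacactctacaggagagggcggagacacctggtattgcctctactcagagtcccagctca
Cd3d, chr9:44981536-44981785, plus strand: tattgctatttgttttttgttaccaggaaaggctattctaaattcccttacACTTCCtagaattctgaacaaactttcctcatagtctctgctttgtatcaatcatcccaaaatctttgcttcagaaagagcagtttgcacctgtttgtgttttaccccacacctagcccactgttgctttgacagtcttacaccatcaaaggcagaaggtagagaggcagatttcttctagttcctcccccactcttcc
The Cd3g stretch held 1 match, to the GATA letters, and the Cd3d stretch held 1 match, to the ETS letters read on the other strand. These matches describe the letters only, and no binding was measured in these mice.

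The count tables show how little RNA of these genes the forebrain held. The total count per mouse was 59265459 to 75932183, yet 8 of the 10 genes never passed 35 counts in any mouse. Over all genes and mice, 23659 values were exactly 4 and 12137 exactly 3, 10544 were 8 and 7936 were 7, so that the low counts pile up at 4 and 8. A value of 3 or 4 counts may therefore stand for 1 sequenced fragment, and 12 counts per mouse (3 fragments of 4 counts) were taken as the floor of detection. Cd4 and Lck were above this floor in 21 of 21 mice. Cd3e was above it in 7 mice, Cd8a, Nkg7 and Gzma in 6 each, Cd3g in 5, Cd3d in 4, and Cd8b1 and Gzmb in 1 each.

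Per transcript length, the order of the levels was Cd4, Lck, then all others. Cd4 had a median of 2.15 FPKM (fragments per kilobase of transcript, scaled by the authors to the mapped fragments of a mouse, range 1.41 to 2.51 over 21 mice) and Lck 0.466 FPKM (0.312 to 0.731), and these 2 ranges did not overlap. The median was 0.0960 FPKM for Gzma, 0.0953 for Nkg7, 0.0334 for Cd3e, 0.0305 for Cd3g and 0.0277 for Cd8a, and 0 for Cd3d, Cd8b1 and Gzmb. The lowest value of each of these 8 genes was 0 and their ranges overlapped, so their order is not set beyond the spread between mice. The level of Lck also overlapped with the highest mice of Nkg7, at 0.494 FPKM.

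**Figure D1:**
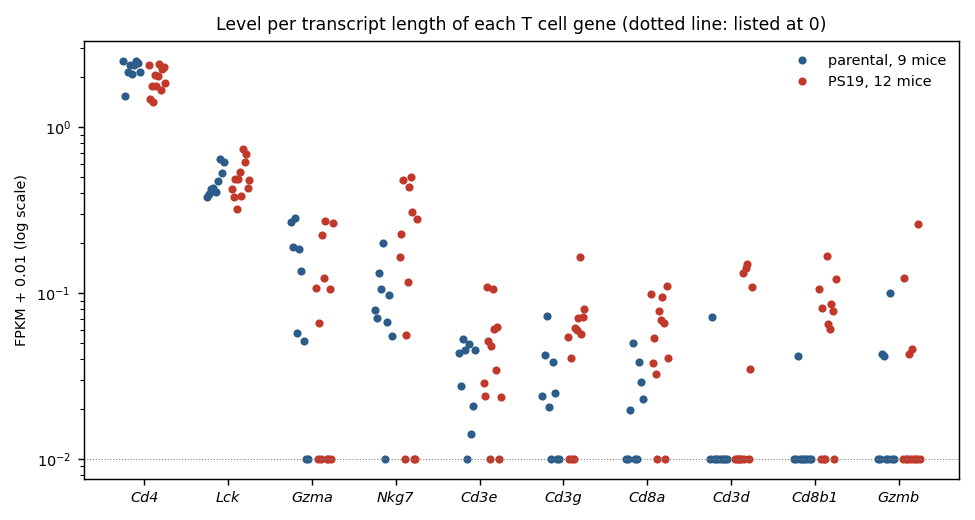
The level per transcript length of each of the 10 T cell genes is shown for the 9 parental mice (blue) and 12 PS19 mice (red), as FPKM + 0.01 on a log axis, 1 point per mouse. Cd4 lies above Lck in every mouse, and each of the other 8 genes has mice at the dotted line, where the file lists 0.

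Each PS19 group was set against the parental mice of its APOE line, which asks whether T cell transcripts differ between mice with and without mutant tau. In edgeR's quasi-likelihood test a gene counted as called when its fold change was at least 2 and its p, adjusted by Benjamini-Hochberg over all genes tested, was under 0.05. In PS/E2H against E2H, 0 of the 4 T cell genes that passed the count filter were called, against 0.485% of the 20617 genes tested. In this comparison 1 of the 4 T cell genes, Gzma, had an unadjusted p under 0.05, against 2203 of the 20617 genes tested, and DESeq2 called 0. Gzma passed the count filter there only through the E2H mice, the group where it was higher. In PS/E3H against E3H, 0 of 7 were called and 0 had an unadjusted p under 0.05, and DESeq2 called 0. Of the 21251 genes tested there, 1.32% were called and 4541 had an unadjusted p under 0.05. In PS/E4H against E4H, 1 of 3 was called, Cd3g, higher in PS/E4H (of 20844 genes 2.98% were called, 2.4% as higher). Cd3g passed the count filter there only through the PS/E4H mice, the group where it was higher. Over the 3 APOE lines together, in 1 fit of all 21 mice, 1 of 9 was called, Cd8b1, higher in PS19 (2.82% of 22863 genes were called in either direction and 2.42% as higher). Cd8b1 likewise passed the filter only through PS19 mice, so the 1 of 3 and the 1 of 9 are not evidence of a rise. An unadjusted p under 0.05 was found for 2 of the 9, Cd8a and Cd8b1, against 32.9% of all genes tested. Leaving out Cd3d and Cd8b1, for which no fold is given, the median log2 fold change of the other 7 fitted T cell genes was 0.52, and that of all genes tested was -0.0033. Of these 7 genes, Cd3g, Cd8a and Nkg7 also passed the filter through PS19 mice, since too few parental mice reached its minimum count. The median is thus not evidence of a rise. Genes with too few counts for the fit were compared by a two-sided exact permutation test of the mean CPM (counts scaled to the library size of a mouse after TMM normalization), which was run for all 10 genes. The smallest p that test can give is 0.0286 for 4 mice against 3 and 2.33e-05 when tau status is permuted within each of the 3 lines. These p-values are not adjusted for the 10 genes, and they measure only the spread between these mice.

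**Figure D2:**
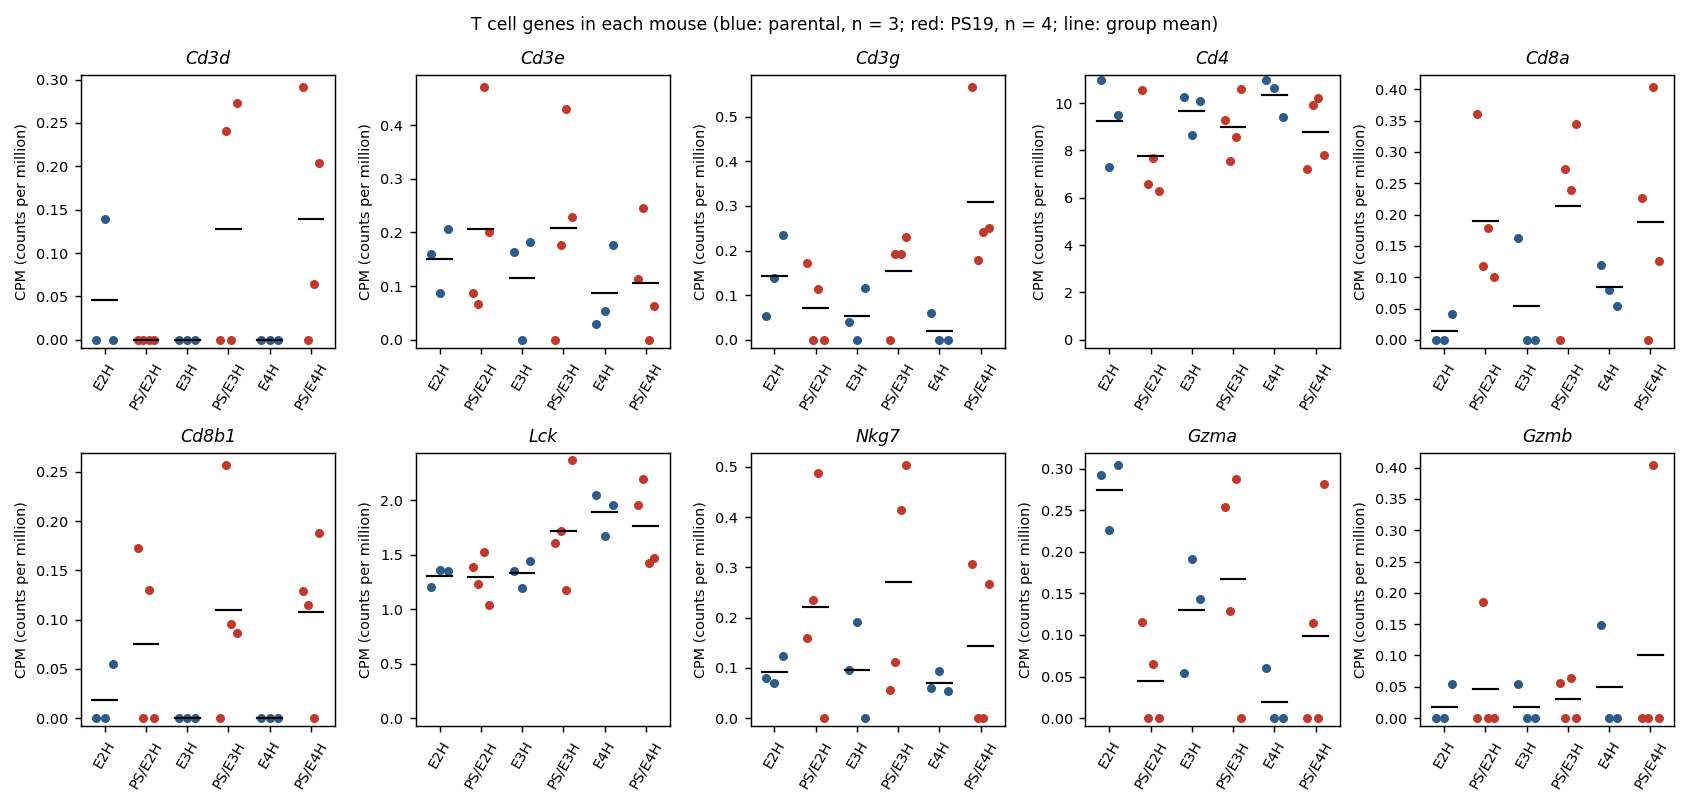
Each panel shows 1 T cell gene as CPM on a linear axis, 1 point per mouse, for the 3 parental groups (blue, n = 3) and the 3 PS19 groups (red, n = 4), with a line at the group mean. Cd8b1 is at 0 in 8 of 9 parental mice and above 0 in 8 of 12 PS19 mice, while Cd4 and Lck are above 0 in every mouse.

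Cd3g, the CD3 gamma chain, had 35, 11, 15 and 16 counts in the 4 PS/E4H mice and 4, 0 and 0 in the 3 E4H mice. The groups did not overlap, and every PS/E4H mouse was above every E4H mouse. The gene passed the count filter here only through the PS/E4H mice. Cd3g was called in this comparison, with a log2 fold change of 3.90 ± 1.10 (SE, edgeR adjusted p = 0.0381), a size that rests on 4 counts in a single E4H mouse. PS/E4H mice had a mean of 0.310 ± 0.174 CPM (SD, n = 4) against 0.0199 ± 0.0345 for E4H (SD, n = 3), and the exact permutation p was 0.0571. The groups did not overlap in this direction for 14.2% of all genes tested. The call was lost when E4H replicate 2 (adjusted p = 0.150), E4H replicate 3 (0.111), PS/E4H replicate 1 (0.0680) or PS/E4H replicate 4 (0.0523) was left out in edgeR, and DESeq2 gave no adjusted p for this gene.

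In the other lines the groups overlapped. PS/E3H mice had 0, 12, 12 and 16 counts and E3H mice 3, 0 and 9 (log2 fold change 1.45 ± 1.22 SE, edgeR adjusted p = 0.553). PS/E2H mice had 12, 0, 7 and 0 counts and E2H mice 4, 8 and 17, so that the mean was lower in PS/E2H, at 0.0716 CPM against 0.142 CPM (exact permutation p = 0.314). Whether the effect of tau on Cd3g differs between APOE4 and APOE2 was tested as an interaction in the fit of all 21 mice, which gave a log2 difference of 4.85 ± 1.97 (SE, edgeR adjusted p = 0.356). Over the 3 lines Cd3g had a log2 fold change of 1.47 ± 0.79 (SE, edgeR adjusted p = 0.208), and it passed the count filter there through PS19 mice.

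Cd3d, the CD3 delta chain, was at 0 in 15 of 21 mice. It had counts in 2 PS/E3H mice (15 and 19), 3 PS/E4H mice (18, 4 and 13) and 1 E2H mouse (8), and was at 0 in all E3H, E4H and PS/E2H mice. The mean CPM was 0.0894 over the 12 PS19 mice and 0.0155 over the 9 parental mice, and the exact permutation p over the 3 lines was 0.127. No fold is given for Cd3d, since whole groups were at 0 and the fit returned no usable standard error.

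Cd3e, the CD3 epsilon chain, had counts in 10 of 12 PS19 mice (0 to 29, median 9) and in 8 of 9 parental mice (0 to 15, median 12). Each PS19 group overlapped its parental line, and the log2 fold change over the 3 lines was 0.52 ± 0.69 (SE, edgeR adjusted p = 0.665). An antisense gene, Gm48719, overlaps Cd3e with 0 to 7 counts per mouse. The libraries were stranded, but the strand setting of the counting is not given in the sources used here.

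Among the coreceptors, Cd8a (ENSMUSG00000053977, chromosome 6, plus strand, 71373427 to 71379173) encodes the CD8 alpha chain. PS/E2H mice had 25, 7, 11 and 6 counts and E2H mice 0, 0 and 3, with no overlap between the groups, which for higher values held for 6.47% of all genes tested. The gene was below the count filter there, and its mean was 0.189 ± 0.119 CPM (SD, n = 4) against 0.0138 ± 0.0239 (SD, n = 3, exact permutation p = 0.0571). PS/E3H mice had 0, 17, 15 and 24 counts against 12, 0 and 0 in E3H, and PS/E4H mice had 14, 0, 25 and 8 against 8, 6 and 4 in E4H. These groups overlapped through a single PS19 mouse at 0 in each line and, in the APOE4 line, a PS19 mouse with a count equal to the highest E4H mouse. Over the 3 lines Cd8a had a log2 fold change of 2.22 ± 0.84 (SE), which missed the threshold in edgeR (adjusted p = 0.0640), and an exact permutation p of 0.0106. The mean was 0.197 CPM over 12 PS19 mice and 0.0509 CPM over 9 parental mice. Over the 3 lines Cd8a passed the count filter through PS19 mice, so its fit is tied to the mice where it was higher. Cd8a was called when E2H replicate 3 (adjusted p = 0.0413), E3H replicate 1 (0.0116), PS/E3H replicate 1 (0.0315) or PS/E4H replicate 2 (0.0388) was left out in edgeR, and by DESeq2 with all mice (adjusted p = 0.0266).

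Cd8b1 (ENSMUSG00000053044, chromosome 6, plus strand, 71322788 to 71337494) encodes the CD8 beta chain, which pairs with the alpha chain on cytotoxic T cells. It had 12, 0, 8 and 0 counts in PS/E2H, 0, 16, 6 and 6 in PS/E3H and 8, 7, 0 and 12 in PS/E4H. In the parental mice it had 0, 0 and 4 counts in E2H and 0 in all E3H and E4H mice. Counts were thus found in 8 of 12 PS19 mice and in 1 of 9 parental mice, though only 1 mouse of the 21 was above the floor of 12 counts. Cd8b1 was the 1 T cell gene called over the 3 lines (edgeR adjusted p = 0.0144), and its exact permutation p was 0.00865. It passed the count filter only through PS19 mice, so the call is tied to the mice where it was higher. The mean was 0.0977 CPM over the PS19 mice and 0.00613 CPM over the parental mice, and no fold is given because 2 parental groups were at 0. Without PS/E2H replicate 1, PS/E3H replicate 2 or PS/E4H replicate 4 the gene fell below the count filter and was not tested, and DESeq2 gave it no adjusted p. Of the 50-base windows of its transcripts, 6.28% also occur in transcripts of other genes, so some of its counts may come from repeated sequence.

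The CD4 coreceptor gene was measured well above the floor in every mouse. Cd4 (ENSMUSG00000023274, chromosome 6, minus strand, 124864692 to 124888221) had 377 to 738 counts in PS19 mice (median 518) and 419 to 826 in parental mice (median 734). The mean CPM was lower in each PS19 group than in its parental line, but all 3 pairs of groups overlapped. The log2 fold change was -0.25 ± 0.21 in the APOE2 line, -0.12 ± 0.14 in APOE3 and -0.23 ± 0.15 in APOE4 (SE, edgeR adjusted p = 0.758, 0.685 and 0.337). Over the 3 lines it was -0.19 ± 0.10 (SE, edgeR adjusted p = 0.196, exact permutation p = 0.0645). Cd4 is also known from some dendritic cells and macrophages, and its level per transcript length was above that of each CD3 gene in every mouse.

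Lck (ENSMUSG00000000409, chromosome 4, minus strand, 129548344 to 129573641) had 62 to 165 counts in PS19 mice (median 95) and 75 to 144 in parental mice (median 99). Lck RNA has been described in neurons as well as in T cells. Its log2 fold change over the 3 lines was 0.09 ± 0.13 (SE, edgeR adjusted p = 0.710). The mean was 1.29 ± 0.211 CPM in PS/E2H, 1.72 ± 0.492 in PS/E3H and 1.76 ± 0.376 in PS/E4H (SD, n = 4), and each group overlapped its parental line.

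Of the cytotoxic genes, Nkg7 (ENSMUSG00000004612, chromosome 7, plus strand, 43437073 to 43438249) had 11, 14, 30 and 0 counts in PS/E2H, 4, 7, 26 and 35 in PS/E3H and 19, 0, 0 and 17 in PS/E4H. The 9 parental mice had 0 to 12 counts, with a median of 6.0. The 6 mice above 12 counts were all PS19 mice, 2 in each group, but every PS19 group also held mice within the parental range. The log2 fold change over the 3 lines was 1.26 ± 0.77 (SE, edgeR adjusted p = 0.270, exact permutation p = 0.0740). Nkg7 passed the count filter there through PS19 mice, where it was higher.

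Gzma (ENSMUSG00000023132, chromosome 13, minus strand, 113093825 to 113100981) encodes granzyme A. In the APOE2 line it was lower in PS19 mice, with 8, 0, 4 and 0 counts against 22, 13 and 22 in E2H, and the groups did not overlap, which for lower values held for 5.22% of all genes tested. The log2 fold change was -2.53 ± 1.0 (SE, edgeR adjusted p = 0.390), and the exact permutation p was 0.0286, the smallest that 4 mice against 3 can give. Gzma passed the count filter there only through the E2H mice, so this fold is tied to the group where it was higher. PS/E3H mice had 18, 8, 18 and 0 counts and E3H mice 4, 12 and 11, and PS/E4H mice had 0, 7, 0 and 18 against 4, 0 and 0 in E4H. Over the 3 lines the mean was 0.104 CPM in PS19 and 0.141 CPM in parental mice (log2 fold change 0.03 ± 0.50 SE, edgeR adjusted p = 0.979, exact permutation p = 0.465). The fitted value, which is a mean of the log changes in the 3 lines, and the difference of the means differ in sign.

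Gzmb (ENSMUSG00000015437, chromosome 14, minus strand, 56258838 to 56262260) encodes granzyme B and was below the count filter in every comparison. It had counts in 4 of 12 PS19 mice (11 in PS/E2H, 4 and 4 in PS/E3H, 25 in PS/E4H) and in 3 of 9 parental mice (4 in E2H, 4 in E3H, 10 in E4H). The exact permutation p over the 3 lines was 0.578.

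**Figure D3:**
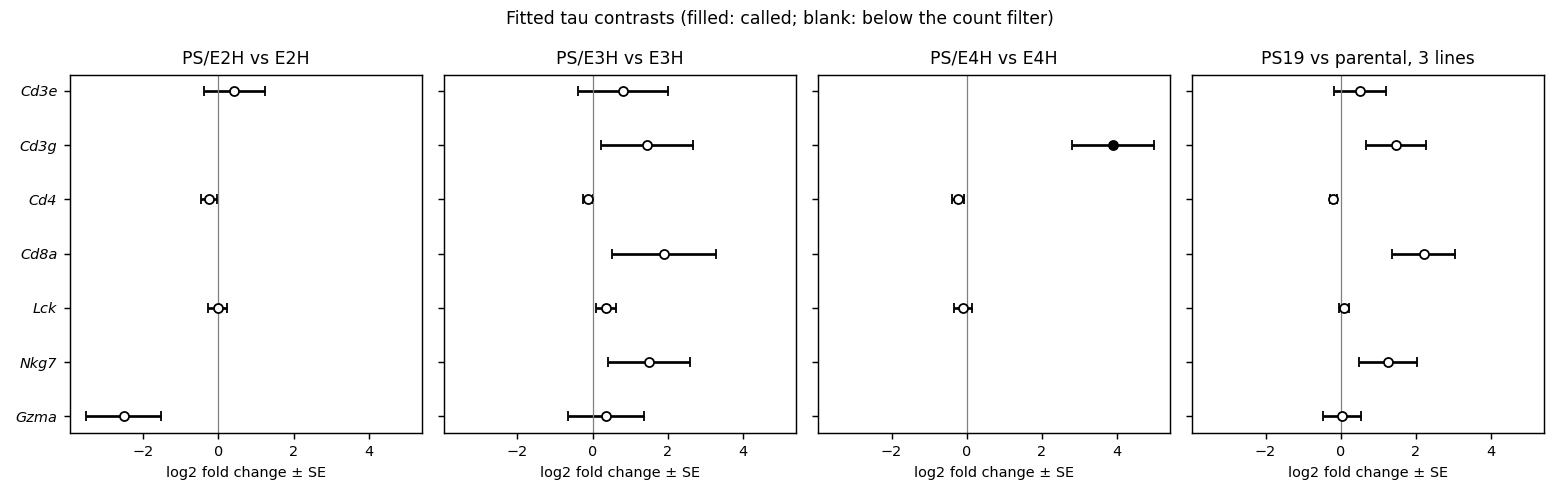
The log2 fold change of 7 T cell genes in each tau comparison is shown with its SE as a bar, with 4 panels for the 3 APOE lines and the 3 lines together. Cd3g in PS/E4H against E4H is the only filled (called) point, Gzma lies at -2.53 in the APOE2 line, and Cd4 and Lck lie near 0 with short bars. Cd3d, Cd8b1 and Gzmb are not drawn since no fold is given for them.

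Taking the 8 scarce genes (all but Cd4 and Lck) mouse by mouse, the number with any count was 2 to 6 of 8 in PS/E2H, 3 to 7 in PS/E3H and 4 to 7 in PS/E4H. It was 4 to 7 in E2H, 2 to 6 in E3H and 3 to 6 in E4H, so that every PS19 group overlapped its parental line. Scaled to library size, their summed level was 0.300 to 1.44 CPM in PS/E2H, 0.367 to 1.72 in PS/E3H and 0.654 to 1.63 in PS/E4H, against 0.584 to 1.02 in E2H, 0.383 to 0.571 in E3H and 0.226 to 0.478 in E4H. All 4 PS/E4H mice had a higher sum than all 3 E4H mice. For single genes this held for 14.2% of all genes tested, and the sum includes Cd3g, which did not overlap there by itself. In PS/E3H 3 mice were above and 1 was below the E3H range, and in PS/E2H 2 mice were above, 1 within and 1 below the E2H range.

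The APOE genotypes were compared within parental and within PS19 mice. PS19 mice were taken at paralysis rather than at a set age, and females were spread unequally over the groups. Age and sex may therefore differ with APOE genotype, and their part was not tested. In each of the 6 comparisons 0 T cell genes were called by edgeR and 0 by DESeq2, with 3 to 7 of the 10 passing the filter. The share of all genes called was 0.144% in E2H against E3H, 0.1% in E4H against E3H, 0.187% in E4H against E2H, 0.108% in PS/E2H against PS/E3H, 0.0197% in PS/E4H against PS/E3H and 0.109% in PS/E4H against PS/E2H. An unadjusted p under 0.05 was found for 1 of 3 fitted T cell genes in E4H against E3H (Lck), against 1397 of 20958 genes tested. In E4H against E2H it was found for 2 of 4 (Lck and Gzma), against 2570 of 20804 genes, and Gzma passed the filter there only through E2H mice. In the other 4 comparisons it was found for 0 T cell genes. Over all genes it was found there for 2933 of 20797 (E2H against E3H), 2383 of 20324 (PS/E2H against PS/E3H), 1324 of 20332 (PS/E4H against PS/E3H) and 2491 of 20202 (PS/E4H against PS/E2H). Lck had 137, 126 and 144 counts in E4H, 99, 75 and 111 in E3H and 91, 78 and 98 in E2H. The E4H mice were above all mice of both other lines, which held for 6.52% of all genes tested against E3H and 10.7% against E2H, with a log2 fold change of 0.50 ± 0.21 against E3H and 0.53 ± 0.22 against E2H (SE, edgeR adjusted p = 0.718 and 0.389). Gzma had 4, 0 and 0 counts in E4H and 22, 13 and 22 in E2H, with no overlap, which for lower values held for 10.7% of all genes tested (log2 fold change -3.74 ± 1.10 SE, edgeR adjusted p = 0.354). This fold is tied to the E2H mice, where Gzma was higher, and its size rests on 4 counts in a single E4H mouse. Among PS19 mice Cd3g was highest in PS/E4H, with a log2 fold change of 2.04 ± 0.94 against PS/E2H (SE, edgeR adjusted p = 0.410), and the group means of Cd8a were 0.189, 0.214 and 0.189 CPM in PS/E2H, PS/E3H and PS/E4H. The effect of tau did not differ past the threshold between any pair of APOE lines, with 0 of 9 T cell genes and 0% of the 22863 genes tested called in each of the 3 interactions. The unadjusted p was under 0.05 for 1 of 9 T cell genes in APOE2 against APOE3 (Cd3d, against 6.8% of all genes tested), 0 of 9 in APOE4 against APOE3 (2.98% of all genes) and 3 of 9 in APOE4 against APOE2 (Cd3d, Cd3g and Gzma, against 11.4% of all genes). The p of Cd3d rests on groups wholly at 0. DESeq2 called 0 T cell genes in each.

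Other genes of T cells were read from lists of known markers. Of 26 further genes of the T cell receptor and its signal, 24 passed the filter over the 3 lines, 1 was called higher and 0 lower, with a median log2 fold change of 0.08. Of all genes tested, 2.42% were called higher. An unadjusted p under 0.05 was found for 10 of the 24, 6 higher and 4 lower, against 32.9% of all genes tested. The summed level of the list was 79.9 to 100.8 CPM in PS19 mice (median 93.2) and 96.4 to 120.8 CPM in parental mice (median 104.2). Bcl11b alone had 44.6 to 68.6 CPM in PS19 and 59.7 to 86.4 CPM in parental mice, so the sum does not measure the receptor genes. The 1 called gene was Il7r, the interleukin-7 receptor alpha chain, at 1.47 ± 0.39 (SE, edgeR adjusted p = 0.00891), with 0.210 to 1.72 CPM in PS19 and 0 to 0.453 CPM in parental mice. Lcp2, an adaptor protein also used by myeloid cells, had 0.68 ± 0.14, Bcl11b, a transcription factor that cortical neurons also express, -0.33 ± 0.06, and Cd6 -0.60 ± 0.21 (SE, edgeR adjusted p = 0.00135, 0.000615 and 0.0502), all short of a 2-fold change. The constant region genes of the receptor itself, Trac, Trbc1 and Trbc2, were looked up after their values were seen. Trac had 25 to 95 counts over the 21 mice, Trbc1 15 to 59 and Trbc2 303 to 737, and their log2 fold changes over the 3 lines were 0.41 ± 0.23, 0.42 ± 0.24 and -0.05 ± 0.16 (SE, edgeR adjusted p = 0.215, 0.232 and 0.878). Of 7 genes of gamma delta and regulatory T cells 3 passed the filter and 0 were called, with 1.0 ± 0.56 for Il2ra, 0.39 ± 0.30 for Trdc, the constant region of the delta chain, and -0.04 ± 0.36 for Foxp3, the defining factor of regulatory T cells (log2 fold change ± SE, edgeR adjusted p = 0.227, 0.414 and 0.965). Of these 3 genes 0 had an unadjusted p under 0.05, against 32.9% of all genes tested.

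Of 18 further cytotoxic lymphocyte and natural killer genes, 9 passed the filter over the 3 lines, 3 were called higher and 0 lower. Of all genes tested, 2.42% were called higher. An unadjusted p under 0.05 held for 4 of the 9, all higher, against 32.9% of all genes tested. Cst7, a cystatin that activated microglia also express, rose by 5.01 ± 0.28 on the log2 scale (SE, edgeR adjusted p = 2.2e-10) and made up most of the summed level of this list in PS19 mice. Ccl5, a chemokine of cytotoxic T cells, was called over the 3 lines at 1.44 ± 0.38 (SE, edgeR adjusted p = 0.00995), but in none of the lines alone. Its log2 fold change was 2.49 ± 0.69 in the APOE2 line, -0.46 ± 0.46 in APOE3 and 2.27 ± 0.72 in APOE4 (SE, edgeR adjusted p = 0.184, 0.634 and 0.0578). Klrb1c, a natural killer receptor, was at most 0.290 CPM in any mouse and at most 0.156 CPM in parental mice (edgeR adjusted p = 0.0273). Too few parental mice reached the minimum count of the filter, so Klrb1c passed it through PS19 mice, where it was higher.

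**Figure D4:**
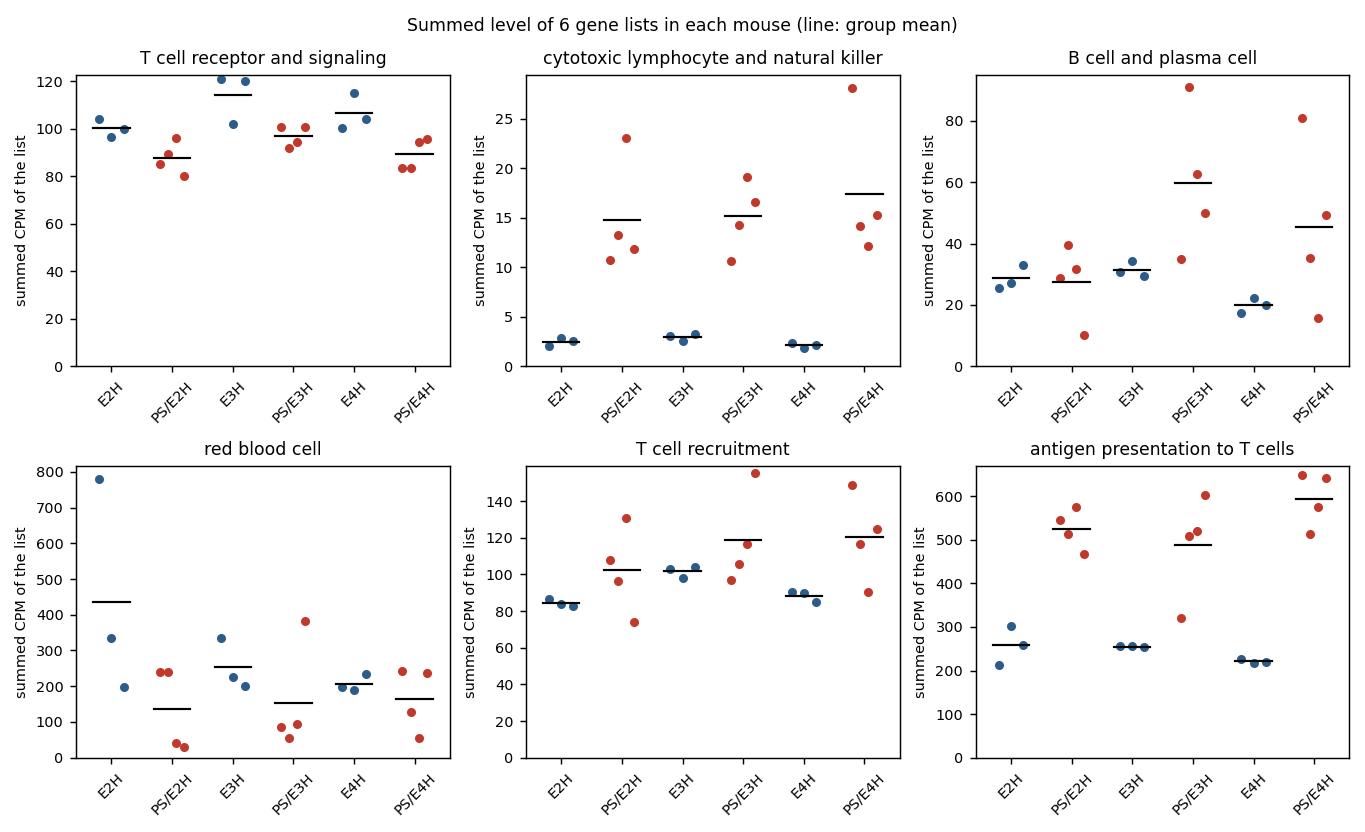
The summed CPM of 6 gene lists is shown for each mouse in parental (blue, n = 3) and PS19 (red, n = 4) groups, with a line at the group mean and all axes starting at 0. The cytotoxic and antigen presentation lists lie higher in all PS19 mice than in all parental mice, while the T cell receptor and red blood cell lists overlap, with lower medians in PS19. The T cell receptor sum is largely that of Bcl11b, and the T cell recruitment list also overlaps.

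Genes that draw T cells in and present antigen to them were read in the same fit. Of 12 genes of T cell recruitment, 8 were called higher and 0 lower over the 3 lines, with a median log2 fold change of 1.54. Of all genes tested, 2.42% were called higher. An unadjusted p under 0.05 held for 10 of the 12, 9 higher and 1 lower, against 32.9% of all genes tested. The summed level of this list overlapped, at 74.0 to 155 CPM in PS19 mice and 82.6 to 103.9 CPM in parental mice. Cxcl16, a chemokine for activated T cells, rose by 1.96 ± 0.18 and Ccl3 by 2.59 ± 0.24 on the log2 scale (SE, edgeR adjusted p = 1.97e-07 and 2.17e-07). Icam1, an adhesion molecule that T cells bind, rose by 1.21 ± 0.17 and Ccl4 by 3.25 ± 0.51 (SE, edgeR adjusted p = 3.88e-05 and 0.000109). Of 12 antigen presentation genes, 7 were called higher and 0 lower, with a median of 1.2, against 2.42% of all genes tested called higher. An unadjusted p under 0.05 held for 11 of the 12, all higher, against 32.9% of all genes tested. They included the MHC class II genes Cd74 (2.34 ± 0.16) and H2-Aa (2.17 ± 0.18), the MHC class I gene H2-D1 (1.30 ± 0.10) and the costimulator Cd86 (1.54 ± 0.14) (log2 fold change ± SE, edgeR adjusted p = 3.23e-09, 4.53e-08, 2.06e-08 and 9.51e-08). The summed level of the antigen presentation list was 320 to 648 CPM in PS19 mice and 213 to 302 CPM in parental mice, with no overlap.

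Markers of other blood and border cells were read beside the T cell genes, and their part in the T cell values was not tested. Of 5 red blood cell genes 0 were called, and their summed level was 28.8 to 381 CPM in PS19 and 190 to 779 CPM in parental mice, with medians of 110.0 and 227 CPM. Of these 5 genes 5 had an unadjusted p under 0.05, all lower in PS19. The share over all genes tested was 32.9%, for this count and for the later ones of unadjusted p in this paragraph. For the counts of genes called higher over the 3 lines, the share over all genes tested was 2.42%. Of 9 B cell and plasma cell genes 2 were called higher, Igkc (3.02 ± 0.65) and Jchain (1.44 ± 0.38) (log2 fold change ± SE, edgeR adjusted p = 0.00192 and 0.0093), which were not higher in the APOE2 line (Igkc -0.37 ± 0.70 and Jchain -0.15 ± 0.49, edgeR adjusted p = 0.916 and 0.961). In the APOE3 and APOE4 lines Igkc was called, at 4.33 ± 1.10 and 5.08 ± 1.04 (SE, edgeR adjusted p = 0.0476 and 0.0107). The B cell list had a summed level of 10.3 to 91.0 CPM in PS19 and 17.5 to 34.5 CPM in parental mice. Of 6 fitted neutrophil genes 2 were called higher, S100a8 and Ngp, and their list ranged from 0.155 to 38.3 CPM in PS19 and from 0.339 to 8.91 CPM in parental mice. Only PS/E3H replicate 4 (38.3 CPM) and PS/E4H replicate 1 (20.8 CPM) were above the highest parental mouse. Of 12 microglial genes 6, of 13 fitted border macrophage, monocyte and dendritic cell genes 4, and of 8 pan-leukocyte genes 6 were called higher, with summed levels of 814 to 1524, 48.8 to 67.5 and 180 to 261 CPM in PS19 against 502 to 667, 42.0 to 49.6 and 129 to 178 CPM in parental mice. Of 9 genes of meninges and choroid plexus 0 were called by edgeR and 5 had an unadjusted p under 0.05, among them Igf2 (0.71 ± 0.11) and Col1a2 (0.88 ± 0.15), higher in PS19 at less than 2-fold (edgeR adjusted p = 9.44e-05 and 0.000254), with a summed level of 574 to 1373 CPM in PS19 and 539 to 889 CPM in parental mice. Of 8 neuronal genes, which mark the labelled tissue, 0 were called by edgeR and 6 had an unadjusted p under 0.05, 4 lower and 2 higher in PS19. Their sum was 5186 to 6352 CPM in PS19 mice (median 5510.3) and 5880.4 to 6423 CPM in parental mice (median 6049), and 11 of 12 PS19 mice lay below the lowest parental mouse.

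The annotated genes within 5 kb of a T cell gene were read as well, since reads could spill over from them. Ube4a, 3972 bases from Cd3g, had 1520 to 5759 counts and Gpr162, 709 bases from Cd4, had 8124 to 13115 counts over the 21 mice. Smyd1, 555 bases from Cd8b1 on the other strand, had 161 to 348 counts in parental and 123 to 321 in PS19 mice, and Gm44174, 143 bases from Cd8a, was at 0 in every mouse. Beside Gzma, Cdc20b had 0 to 5 counts in parental and 0 to 15 in PS19 mice. Beside Nkg7, Lim2 and Cldnd2 had at most 4 counts, beside Lck, Fam167b had 4 to 70 and Mir8119 at most 1, beside Cd3e, Gm48720 had at most 2, and beside Cd8b1, Gm44110 had 0.

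The CPM of the 3 CD3 genes was summed, and the log2 of this sum plus a small constant was taken. It was set against every other gene that passed the count filter over the 21 mice, as a description. The CD3 sum had r = 0.74 with Cd8b1, 0.42 with Cd8a, 0.25 with Lck, 0.20 with Nkg7, 0.02 with Gzma and -0.19 with Cd4 (Pearson, 21 mice). After the group means were subtracted, r was 0.67 with Cd8b1, 0.55 with Cd8a, 0.35 with Lck, 0.23 with Nkg7, -0.12 with Gzma and -0.05 with Cd4. The CD8 genes thus followed the CD3 sum most closely of these 6 genes, and Cd4 and Gzma did not follow it. PS/E3H replicate 1 and E3H replicate 2 were at 0 for all 3 CD3 genes, Cd8a and Cd8b1. Their weight in these r values was not tested. Among all genes that passed the filter the highest values were those of Tmem221 (0.85), Arhgef26 (0.83), Nadk2 (0.81), Acer3 (0.81), Retreg1 (0.80), Lacc1, Msi2, Cd244a, Dusp10 and Themis2 (0.78 each), and 1% of the genes that passed were above 0.67. After subtracting the group means they were Naip2 (0.94), Prdm16 (0.90), Arhgef26 (0.88), Tcf24 (0.88), Pros1 (0.87), Slc5a8 (0.86), Spopl (0.85), Ctsc (0.85), Dusp10 (0.84) and Lgals3 (0.84). There 1% of the genes that passed were above 0.70, and both CD8 genes were below that value. With CD3 sums this low and libraries of 3 or 4 mice per group, these values describe the 21 libraries only.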

How the data were processed

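The authors sequenced stranded poly(A) libraries of 21 forebrains on an Illumina NovaSeq instrument, trimmed the reads with Cutadapt, aligned them with HISAT2 to the Ensembl mouse genome (GRCm38) and assembled and quantified transcripts with StringTie. They deposited whole-number counts per gene without normalization. The authors also deposited FPKM values, which are scaled for the length of a transcript and the size of a library. How the counts were derived is not given in the sources used here. Groups and replicate numbers came from the labels, and 0 columns were left unmapped.

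Counts were fitted with edgeR 4.0.16 in R 4.3.3 (TMM, filterByExpr with a minimum count of 10 and a total of 15, quasi-likelihood F test). Each comparison of 2 groups used its own mice. The contrast over the 3 APOE lines and the interactions, called at adjusted p under 0.05 without a fold limit, used all 21. Alternatives used DESeq2 1.42.0 and limma 3.58.1, and the fits were tested on simulated data. CPM is the count per library size after TMM scaling over all 21 mice. Exact permutation tests took the absolute difference of mean CPM. Intervals for counting error are not given, since the counts are not single fragments. Same-numbered mice of a comparison correlated in their deviations from the group means at r = -0.12 to 0.09, so numbers were not taken to pair mice. The total count per mouse had a median of 63751715. All 27 within-group pairs of mice differed beyond sampling noise. Apart from the 10 genes, those named are drawn from up to 4 per marker list with the smallest p over the 3 lines (Trac, Trbc1 and Trbc2 were added after their values were seen), genes within 5 kb of a T cell gene (GENCODE M21), and the 10 most correlated with the CD3 sum. The genes and lists were chosen with earlier results of these data known.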

Additional observations from a re-analysis of the deposited data

Results flagged for a closer look

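In groups of 4 mice, a mouse stands out when its gap to the nearest other mouse, divided by the range of the group, is above Dixon's 95% critical value, which chance alone gives in about 1 of 20 groups of roughly normal values. That rate does not hold for counts that are mostly 0, where 3 mice at 0 and 1 mouse with counts always meet the rule, as for both Gzmb values here. Of the 30 sets of 4 PS19 mice, 1 for each T cell gene and PS19 group, 3 held such a mouse. Cd3g was at 0.0 CPM in PS/E3H replicate 1, where the other 3 mice had 12, 12 and 16 counts. Gzmb was at 0.185 CPM (11 counts) in PS/E2H replicate 2 and at 0.403 CPM (25 counts) in PS/E4H replicate 3, while the other 3 mice of each group were at 0. PS/E3H replicate 1 was also at 0 for Cd3d, Cd3e, Cd8a and Cd8b1.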

How the results depend on the processing

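Of the counts of called T cell genes under alternatives that kept all mice, 102 kept their value and 9 did not. In PS/E4H against E4H the count fell from 1 to 0 under DESeq2 (which gave Cd3g no adjusted p), without the filter on low counts, with limma on log2(FPKM + 0.1) or log2(FPKM + 1), in 1 fit of all 21 mice and with the replicate number as a block. Over the 3 lines it fell from 1 to 0 under both limma settings, where Cd8b1 kept an adjusted p of 0.0327 and 0.0478 but not a 2-fold change on that scale, and rose to 2 (Cd8a and Cd8b1) with counts divided by 4, an alternative chosen after seeing the data. DESeq2 called 1 there, Cd8a in place of Cd8b1. Leaving out 1 mouse at a time gave 0 to 1 called genes in PS/E4H against E4H, 0 to 2 over the 3 lines, and 0 in every other comparison. The replicate block, though the numbers were not found to pair mice, changed no other count. Directions turned for some log2 fold changes that were smaller than their SE. Lck in PS/E2H against E2H went to 0.0016 with limma on log2(FPKM + 1) and to 0.071 with the block, and to -0.10 to 0.072 when 1 mouse was left out. Gzma over the 3 lines went to -0.24 and -0.041 under the limma settings, -0.086 with counts divided by 4, -0.17 in an additive model of line and tau, and -0.41 to 1.19 when 1 mouse was left out. Leaving out 1 mouse also gave -0.36 to 0.71 for Cd3e in PS/E2H against E2H and -0.031 to 0.77 for Gzma in PS/E3H against E3H. The cause of these changes was not tested. At counts this low, mostly 0 to a few fragments per mouse, differences in 8 of the 10 genes were near the limit of detection.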
